A study of Mus musculus with 7 samples.

Results

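The cell cycle and proliferation genes described here are 36 genes chosen by symbol: 11 that drive mitotic entry and the spindle checkpoint, 10 for chromosomes, kinetochores and spindles, 10 for DNA replication and nucleotide synthesis, 3 G1 cyclins and 2 inhibitors of cyclin-dependent kinases. The deposited files hold all 36, among 16019 genes in all. RNA was sequenced from prostate tissue of mice with experimental autoimmune prostatitis (EAP), an inflammation of the gland raised by immunisation. The labels name the tissue only as prostate. In 4 libraries the mice had received LIT-927, which binds CXCL12 and keeps this chemokine from its receptor CXCR4, injected intraperitoneally at 25 mg/kg per day. In 3 libraries the mice had received the vehicle, methyl-β-cyclodextrin. All 7 libraries come from EAP mice after 14 days of injections, so no library shows the gland without prostatitis. The labels used here state neither the strain and age of the mice nor whether a library is 1 animal or a pool. The p-values therefore measure the spread among the 7 samples, part of which may be technical.

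Levels are the authors' FPKM values, which correct fragment counts for gene length and library depth. Each difference is the mean log2(FPKM + 1) of LIT-927 libraries minus that of vehicle libraries, and for genes at low levels this scale gives too small a change. limma tested all 16019 genes, and calls needed an adjusted p (Benjamini-Hochberg) under 0.05. Recovered fragments summed to 32082756 to 35296072 per library, so depth was even. Markers of neighbouring tissues differed widely within both groups. Transcripts of 6 urothelial markers summed to 330.3 FPKM in LIT-927 replicate 3 and 266.8 FPKM in vehicle replicate 3, against 26.8 to 43.7 FPKM in the other 5 libraries. The same pair held the most transcript of 9 prostate luminal genes, 166333.8 and 74596.5 FPKM in sum, against 6387.3 to 20931.3 FPKM in the others. Pbsn, the luminal marker probasin, was present in all, at 129 to 8963 FPKM with LIT-927 and 1283 to 11311 FPKM with vehicle. Seminal vesicle secretion transcripts (8 genes) summed to 142401.6 to 301495.0 FPKM with LIT-927 and 51017.1 to 563780.9 FPKM with vehicle, highest in vehicle replicate 4. Among them Svs1 was at 11062.5 FPKM in LIT-927 replicate 3 and at 11985.0 and 25355.5 FPKM in vehicle replicates 3 and 4. Elsewhere it was at 38.8 to 243.0 FPKM. Svs3a, Svs3b, Svs4, Svs5 and Svs6 were also highest in those libraries, whereas Svs2 and Pate4 were not. Vas deferens markers (5 genes) summed to 7186.2 to 19921.9 FPKM with LIT-927 and 5286.9 to 13589.4 FPKM with vehicle. Spinkl held most of this sum in replicate 3 of both groups (10740.8 and 5190.0 FPKM) and in vehicle replicate 4 (11702.9 FPKM). In the replicate 3 pair Akr1b7 was at 15.9 and 84.5 FPKM, against 1597.4 to 17099.4 FPKM elsewhere. Crisp1 was at 2.62 and 12.2 FPKM there, against 288.9 to 2508.0 FPKM elsewhere. Gpx5 and Adam7 were under 1 FPKM in all libraries. Median-of-ratios factors, which measure how high most genes of a library lie, ran from 0.811 to 1.155 in LIT-927 libraries and were 1.303, 1.076 and 0.663 in vehicle replicates 1, 3 and 4.

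A dividing cell first commits in G1, when D cyclins with their kinases release E2F factors from the retinoblastoma protein. E2F factors switch on the replication genes of S phase, and a later programme under the MuvB complex, B-MYB and FOXM1 switches on the mitotic genes through CHR elements and CCAAT boxes in their promoters. Mitotic transcripts are degraded or shut off in resting cells, so their level in a tissue follows the share of dividing cells, whereas D cyclins and CDK inhibitors are also expressed in resting epithelium. The adult prostate renews slowly, and dividing cells in an inflamed gland can be epithelial, stromal or immune. In RNA from mixed tissue, fewer cells of a type and less RNA per cell cannot be told apart.

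The 2 promoter signals of the mitotic programme can be seen in the sequences just before the starts of its genes. Promoter sequences from RefSeq (build GRCm38.p6) matched 29 of the 36 members. The following are the 120 bases before the RefSeq start, 5′ to 3′ on the gene's strand, for 4 mitotic genes described below and for Rrm2, the member whose groups lay farthest apart. Capitals mark CCAAT or its reverse complement ATTGG, and the CHR letters TTTGAA.
Cdk1 (chr10:69352913-69353032, minus strand): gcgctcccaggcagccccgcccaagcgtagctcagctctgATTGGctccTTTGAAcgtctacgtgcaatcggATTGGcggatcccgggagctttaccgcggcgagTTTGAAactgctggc
Ccnb2 (chr9:70421555-70421674, minus strand): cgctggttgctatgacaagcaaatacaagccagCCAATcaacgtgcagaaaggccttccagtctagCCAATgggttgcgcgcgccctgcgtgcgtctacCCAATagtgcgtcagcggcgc
Cdc20 (chr4:118437344-118437463, minus strand): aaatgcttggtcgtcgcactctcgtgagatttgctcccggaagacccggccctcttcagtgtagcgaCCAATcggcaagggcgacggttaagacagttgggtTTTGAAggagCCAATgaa
Mki67 (chr7:135716380-135716499, minus strand): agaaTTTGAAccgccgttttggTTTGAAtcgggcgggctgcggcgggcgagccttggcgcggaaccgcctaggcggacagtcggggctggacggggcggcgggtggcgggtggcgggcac
Rrm2 (chr12:24708134-24708253, plus strand): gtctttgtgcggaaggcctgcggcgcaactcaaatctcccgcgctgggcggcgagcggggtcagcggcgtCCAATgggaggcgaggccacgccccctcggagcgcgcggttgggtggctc

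Over the 250 bases before the start, searched on both strands, CCAAT stood in 24 of the 29 members (82.8%) against 37.5% of the 27025 genes with a promoter sequence. By role, it stood in 15 of 17 mitotic members (88.2%) and 8 of 9 replication members (88.9%), so it did not set the mitotic members apart. TTTGAA stood in 7 of 17 mitotic members (41.2%) and in 1 of 9 replication members (11.1%), against 18.3% of all genes. The E2F letters TTTNNCGC, with C or G at each N, stood in 3 of 9 replication members (33.3%) and 1 of 17 mitotic members (5.88%), against 2.16% of all genes. Matches of different motifs can share bases at their ends. Of the pieces shown, those of Ccnb2 and Rrm2 hold no TTTGAA and that of Mki67 no CCAAT. No TTTNNCGC match lies in the 5 pieces shown, and a match describes letters only.

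No cell cycle gene differed between LIT-927 and vehicle after adjustment. Of the 36 members, 0 were called, as were 0 of all 16019 genes (0%) by limma on log2(FPKM + 1), and 0 by limma-voom on recovered fragments (472 genes at an unadjusted p under 0.05). At an unadjusted p under 0.05 there was 1 member, Rrm2. As 1 of 36, this is a smaller share than the 3.68% of all genes (589 genes). It is a larger share than the 0.718% of all genes that were higher with LIT-927 at that threshold. Members split evenly, with 17 at a higher mean and 19 at a lower mean in LIT-927 libraries, and a median difference of -0.01, while 55.5% of all genes had a higher mean and their median difference was 0.02. All LIT-927 libraries lay above all vehicle libraries for 1 member, Rrm2, against 1.08% of all genes, and below them for 0 members, against 2.12%. The median SD over the 7 libraries was 0.22 on the log2(FPKM + 1) scale, against 0.31 over all genes. The added 1 shrinks the SD of low genes, and members were lower, with a median level of 1.29 FPKM against 3.42 FPKM over all genes.

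**Figure D1:**
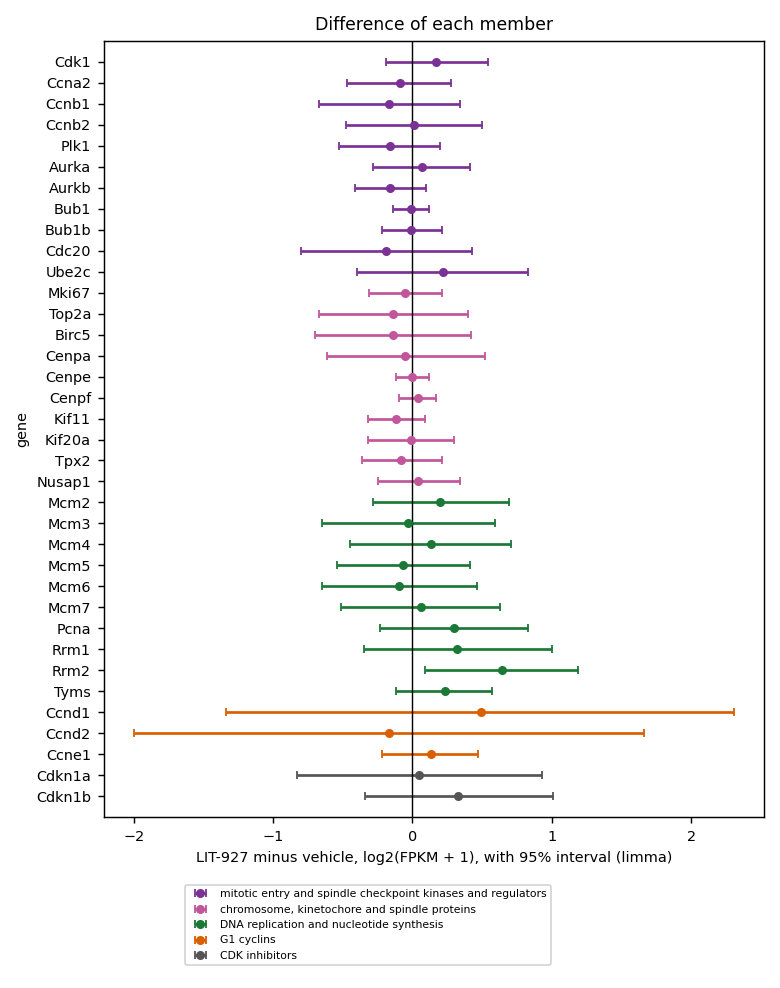
The horizontal axis is the difference in log2(FPKM + 1), LIT-927 minus vehicle, for the 36 members down the page, with bars for the 95% interval from limma over 4 and 3 libraries. Colours stand for the role groups. Intervals cross 0 for every member except Rrm2 (0.64, 0.09 to 1.19), and those of Ccnd1 and Ccnd2 are the widest.

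Mitotic transcripts were low and similar in both groups. Of the 21 mitotic members, 6 had a higher and 15 a lower mean with LIT-927, 0 were called, and the median difference was -0.01 for the kinases and regulators and -0.05 for the chromosome and spindle genes. Mki67, the Ki-67 antigen of dividing cells (mm10 chromosome 7, 135689784 to 135716361, minus strand), was at 0.765, 0.589, 0.763 and 0.569 FPKM in LIT-927 replicates 1 to 4, against 0.913, 0.686 and 0.599 FPKM in vehicle replicates 1, 3 and 4. The groups overlapped, with means of 0.672 ± 0.107 FPKM (SD, n = 4) and 0.733 ± 0.162 FPKM (SD, n = 3). The difference was -0.05 (SE 0.11, 95% interval -0.31 to 0.21; limma adjusted p = 0.998; exact two-sided permutation p = 0.60). It rests on 194 to 310 fragments per library.

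Top2a, the topoisomerase that untangles replicated chromosomes (chromosome 11, 98992943 to 99024189, minus strand), was at 1.13, 0.812, 1.96 and 1.31 FPKM in LIT-927 replicates 1 to 4, against 2.11, 1.25 and 1.22 FPKM in vehicle replicates 1, 3 and 4. LIT-927 replicate 2 was the lowest library and vehicle replicate 1 the highest. The difference was -0.14 (SE 0.23, 95% interval -0.67 to 0.40; limma adjusted p = 0.998; exact permutation p = 0.486). Birc5, which encodes the chromosomal passenger protein survivin, ran from 0.693 to 1.83 FPKM with LIT-927 and from 1.22 to 2.17 FPKM with vehicle, with the same lowest and highest libraries. Cenpa, the histone variant that marks centromeres, ran from 1.09 to 1.69 FPKM against 0.827 to 2.33 FPKM. The remaining chromosome and spindle genes stayed under 1 FPKM, except Kif20a in vehicle replicate 1. Among them Tpx2, which starts spindle microtubules around chromatin, was at 0.656 ± 0.180 against 0.741 ± 0.128 FPKM, and Nusap1, a spindle-binding protein, at 0.534 ± 0.101 against 0.499 ± 0.260 FPKM. The spindle motors Kif11 and Kif20a were at 0.246 ± 0.125 against 0.348 ± 0.050 FPKM and at 0.713 ± 0.115 against 0.732 ± 0.275 FPKM. The kinetochore proteins Cenpe and Cenpf were lowest, at 0.0890 ± 0.0384 against 0.0927 ± 0.0581 FPKM and at 0.149 ± 0.058 against 0.121 ± 0.053 FPKM, on 14 to 85 fragments per library.

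Cdk1, the kinase that drives entry into mitosis (chromosome 10, 69335146 to 69352938, minus strand), was at 0.887, 0.943, 1.25 and 1.0 FPKM in LIT-927 replicates 1 to 4, against 1.16, 0.734 and 0.528 FPKM in vehicle replicates 1, 3 and 4. Its mean was higher with LIT-927, but vehicle replicate 1 lay above 3 of the 4 LIT-927 libraries. The difference was 0.17 (SE 0.16, 95% interval -0.19 to 0.54; limma adjusted p = 0.998; exact permutation p = 0.257). Its partner cyclin B1, Ccnb1 (chromosome 13, 100778650 to 100786570, minus strand), went the other way in its mean, at 0.978, 0.251, 1.12 and 0.755 FPKM with LIT-927 against 1.33, 0.995 and 0.600 FPKM with vehicle. The low value of LIT-927 replicate 2 rests on 19 fragments, against 49 to 104 in the other libraries. The difference was -0.17 (SE 0.22, 95% interval -0.67 to 0.34; limma adjusted p = 0.998; exact permutation p = 0.514). Cyclin A2, Ccna2, was at 0.958 ± 0.254 against 1.08 ± 0.21 FPKM, and cyclin B2, Ccnb2, at 0.947 ± 0.338 against 0.952 ± 0.497 FPKM.

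The mitotic kinases and the checkpoint genes followed the same lines. Aurkb, the kinase of the chromosomal passenger complex (chromosome 11, 69045647 to 69051664, plus strand), was at 0.496, 0.331, 0.688 and 0.436 FPKM with LIT-927 against 0.656, 0.783 and 0.529 FPKM with vehicle. LIT-927 replicates 1, 2 and 4 lay below every vehicle library and replicate 3 above vehicle replicates 1 and 4, for a difference of -0.16 (SE 0.11, 95% interval -0.41 to 0.10; limma adjusted p = 0.998; exact permutation p = 0.171). Aurka, the centrosomal Aurora kinase, was at 0.781 ± 0.269 against 0.684 ± 0.058 FPKM, and Plk1, the polo kinase of mitotic entry, at 0.559 ± 0.286 against 0.730 ± 0.166 FPKM. The checkpoint kinase genes Bub1 and Bub1b were at 0.106 ± 0.055 against 0.117 ± 0.049 FPKM and at 0.319 ± 0.146 against 0.320 ± 0.038 FPKM, Bub1 on 4 to 25 fragments per library.

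Of the genes that end mitosis, Ube2c, the ubiquitin-conjugating enzyme of the anaphase-promoting complex (chromosome 2, 164769898 to 164778822, plus strand), had the highest mean of the mitotic members, at 2.89, 1.48, 2.68 and 2.34 FPKM with LIT-927 against 2.58, 1.24 and 1.86 FPKM with vehicle. The groups overlapped, with a difference of 0.22 (SE 0.26, 95% interval -0.40 to 0.83; limma adjusted p = 0.998; exact permutation p = 0.371). Cdc20, which activates that complex, had the opposite sign of mean difference, at 2.06, 0.789, 1.52 and 1.53 FPKM with LIT-927 against 2.68, 1.59 and 1.22 FPKM with vehicle.

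The extreme values of mitotic genes often fell in the same libraries. LIT-927 replicate 2 was the lowest of the 7 libraries for 11 of the 21 mitotic members, and vehicle replicate 1 the highest for 13. After division by the median-of-ratios factors, LIT-927 replicate 2 was lowest for 12 and LIT-927 replicate 3 highest for 14, while vehicle replicate 1 was highest for 2. The summed FPKM of the kinases and regulators was 11.97, 6.29, 11.3 and 9.51 in LIT-927 replicates 1 to 4, against 13.4, 8.70 and 8.02 in vehicle replicates 1, 3 and 4. That of the chromosome and spindle genes was 7.28, 5.06, 8.56 and 7.49 with LIT-927 against 10.99, 6.04 and 6.64 with vehicle. LIT-927 replicate 2 was thus low on both scales, whereas the place of LIT-927 replicate 3, vehicle replicate 1 and vehicle replicate 4 depended on the scale.

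**Figure D2:**
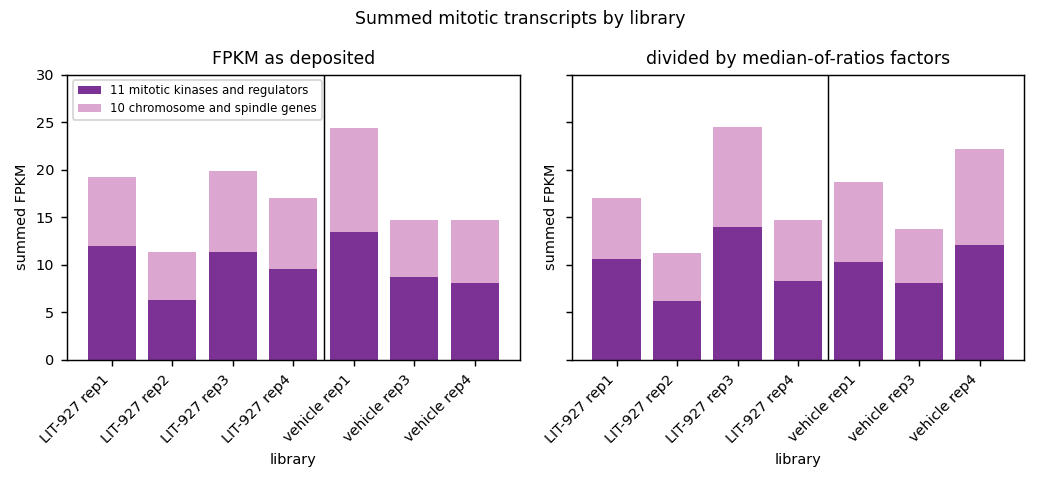
Bars give the summed FPKM of 11 mitotic kinases and regulators (dark) and 10 chromosome and spindle genes (light) in each library, as deposited on the left and divided by median-of-ratios factors on the right. LIT-927 replicate 2 is lowest in both panels, and the highest library is vehicle replicate 1 on the left and LIT-927 replicate 3 on the right.

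The median level of the 10 replication genes was 3.89 FPKM, against 0.86 FPKM for the mitotic kinases and regulators and 0.70 FPKM for the chromosome and spindle genes. Over all libraries, however, the ranges of Tyms, Mcm3, Mcm4, Mcm5, Mcm6 and Mcm7 overlapped that of Ube2c, the highest mitotic gene (1.24 to 2.89 FPKM). Of the 10, 7 had a higher and 3 a lower mean with LIT-927, 0 were called, and the median difference was 0.17. All 10 reached 1 FPKM in at least 3 libraries. Of all genes that did so, 64.1% had a higher mean with LIT-927, and their median difference was 0.079. Vehicle replicate 4, with the lowest scaling factor (0.663), was the lowest library for 7 of the 10. Among the subunits of the MCM helicase that unwinds DNA at origins, Mcm2 (chromosome 6, 88883474 to 88898780, minus strand) was at 5.67, 5.40, 5.10 and 4.23 FPKM in LIT-927 replicates 1 to 4, against 4.11, 4.78 and 3.98 FPKM in vehicle replicates 1, 3 and 4. LIT-927 replicates 1 to 3 lay above every vehicle library, and replicate 4 between them. The difference was 0.20 (SE 0.21, 95% interval -0.28 to 0.69; limma adjusted p = 0.998; exact permutation p = 0.114). Mcm5 (chromosome 8, 75109569 to 75128439, plus strand), a subunit of the same ring, was at 1.997, 1.25, 1.40 and 1.37 FPKM against 2.12, 1.22 and 1.57 FPKM, with a difference of -0.07 (SE 0.21, 95% interval -0.54 to 0.41; limma adjusted p = 0.998; exact permutation p = 0.629). The other subunits were at 1.92 ± 0.81 against 1.93 ± 0.54 FPKM (Mcm3), 3.69 ± 0.74 against 3.29 ± 0.81 FPKM (Mcm4), 2.42 ± 0.45 against 2.67 ± 0.69 FPKM (Mcm6) and 4.32 ± 0.38 against 4.20 ± 1.21 FPKM (Mcm7). Within the helicase the sign of the mean difference therefore varied, positive for Mcm2, Mcm4 and Mcm7 and negative for Mcm3, Mcm5 and Mcm6.

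Pcna, the sliding clamp of DNA polymerases (chromosome 2, 132249162 to 132253314, minus strand), was the highest replication member, at 21.6, 18.8, 17.5 and 18.7 FPKM with LIT-927 against 20.1, 15.9 and 11.1 FPKM with vehicle. Vehicle replicate 1 lay within the LIT-927 range and the other vehicle libraries below it. The difference was 0.30 (SE 0.23, 95% interval -0.23 to 0.83; limma adjusted p = 0.998; exact permutation p = 0.171). Pcna is also used in DNA repair, and its level does not count S-phase cells alone.

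Rrm2, the S-phase subunit of ribonucleotide reductase, which makes deoxyribonucleotides (chromosome 12, 24708241 to 24714146, plus strand), showed the widest separation of the groups among the members. It was at 7.95, 6.64, 5.20 and 5.04 FPKM in LIT-927 replicates 1 to 4, against 4.06, 3.60 and 3.08 FPKM in vehicle replicates 1, 3 and 4. Every LIT-927 library lay above every vehicle library, with means of 6.21 ± 1.36 FPKM (SD, n = 4) and 3.58 ± 0.49 FPKM (SD, n = 3), a ratio of 1.73. The difference was 0.64 (SE 0.24, 95% interval 0.09 to 1.19; limma unadjusted p = 0.0279, adjusted p = 0.998). The exact two-sided permutation p was 0.0286, the smallest that the 35 divisions of the libraries can give. The sign held in all 15 other settings, with an adjusted p between 0.574 and 1.0. The unadjusted p was 0.05 or more in 6 of them, among them leaving out LIT-927 replicate 1, LIT-927 replicate 2 or vehicle replicate 3. After median-of-ratios scaling the groups overlapped, because vehicle replicate 4 moved to 4.65 and LIT-927 replicate 4 to 4.36. Vehicle replicate 4 has the lowest scaling factor, 0.663, which raises its scaled values.

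The other nucleotide enzymes had higher means with LIT-927, without passing the test. Rrm1, the large subunit of the same enzyme (chromosome 7, 102441695 to 102469771, plus strand), was at 9.81, 7.19, 5.15 and 7.15 FPKM with LIT-927 against 7.92, 5.17 and 4.03 FPKM with vehicle. Its groups overlapped in FPKM but not after median-of-ratios scaling, where LIT-927 libraries ran from 6.19 to 8.64 and vehicle libraries from 4.81 to 6.08, as for 4.05% of all genes on that scale. Of the members, 0 lay below every vehicle library there, against 4.99% of all genes, and 1, Rrm2, had an unadjusted limma p under 0.05, against 8.42%. The ratio of Rrm2 to Rrm1 was 0.705 to 1.01 with LIT-927 and 0.512 to 0.765 with vehicle. Tyms, thymidylate synthase (chromosome 5, 30058202 to 30073617, minus strand), was at 1.39, 1.39, 1.36 and 1.13 FPKM with LIT-927 against 1.15, 1.01 and 0.791 FPKM with vehicle. Only LIT-927 replicate 4 and vehicle replicate 1 overlapped.

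**Figure D3:**
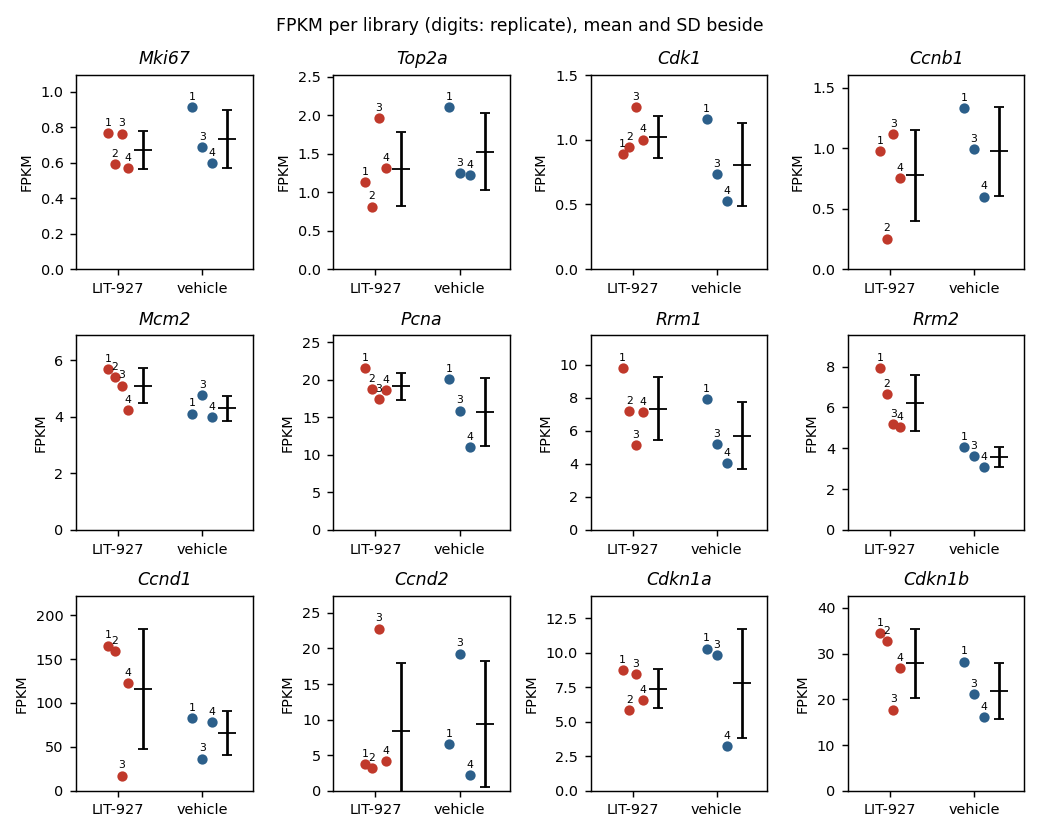
Points are FPKM of 12 members in each library, LIT-927 left and vehicle right, labelled with the replicate number, and the bars beside them are the mean ± SD (n = 4 and 3). Axes start at 0, which cuts the lower end of the LIT-927 bar of Ccnd2. The groups are apart for Rrm2 (5.04 to 7.95 against 3.08 to 4.06 FPKM) and overlap for the other genes shown.

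The G1 cyclins were the members that varied most. Ccnd1, cyclin D1 (chromosome 7, 144929931 to 144939925, minus strand), was at 165, 159, 17.4 and 123 FPKM in LIT-927 replicates 1 to 4, against 82.6, 36.7 and 78.0 FPKM in vehicle replicates 1, 3 and 4. It was the most abundant member in all libraries except LIT-927 replicate 3, and LIT-927 libraries held both its highest values and its lowest. The means were 116 ± 68 FPKM (SD, n = 4) and 65.8 ± 25.3 FPKM (SD, n = 3), with a difference of 0.49 (SE 0.79, 95% interval -1.34 to 2.31; limma adjusted p = 0.998; exact permutation p = 0.657). Ccnd2, cyclin D2 (chromosome 6, 127125162 to 127152193, minus strand), had the reverse pattern, at 3.72, 3.20, 22.8 and 4.12 FPKM with LIT-927 against 6.55, 19.3 and 2.20 FPKM with vehicle. Its difference was -0.17 (SE 0.79, 95% interval -2.0 to 1.66; limma adjusted p = 0.998; exact permutation p = 0.829).

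Extreme values of both D cyclins fell in the same pair of libraries. Within each group Ccnd1 was lowest and Ccnd2 highest in replicate 3, the libraries with high uroplakin transcripts. Upk1a, a uroplakin of the urothelial surface, was at 253 and 172 FPKM in these libraries and at 2.64 to 10.1 FPKM elsewhere. The vas deferens marker Akr1b7 was at 15.9 and 84.5 FPKM in them and at 1597.4 to 17099.4 FPKM elsewhere. The ratio of Ccnd1 to Ccnd2 was 0.762 and 1.90 in this pair, against 29.9 to 49.6 in the other LIT-927 libraries and 12.6 and 35.5 in the other vehicle libraries. Svs1 was high in this pair and also in vehicle replicate 4 (25355.5 FPKM), which stays in when the pair is left out. The part of tissue make-up in these levels was not tested. Without the pair, Ccnd1 was at 123 to 165 FPKM with LIT-927 and 78.0 and 82.6 FPKM with vehicle, a difference of 0.87 (SE 0.30; limma unadjusted p = 0.0264, adjusted p = 0.699), in a setting where 5.9% of all genes had an unadjusted p under 0.05. The Ccnd1 difference was 1.24 when LIT-927 replicate 3 alone was left out (limma adjusted p = 0.423). It was 0.12 when vehicle replicate 3 alone was left out. Dropping LIT-927 replicate 1 gave 0.18, and dropping replicate 2 of that group gave 0.20. Without LIT-927 replicate 3, 3 members, Ccnd1, Rrm2 and Kif11, had an unadjusted p under 0.05, against 7.55% of all genes. Within the pair, Ccnd1 was lower with LIT-927 than with vehicle, at 17.4 and 36.7 FPKM, with 1 library a group and no test.

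**Figure D4:**
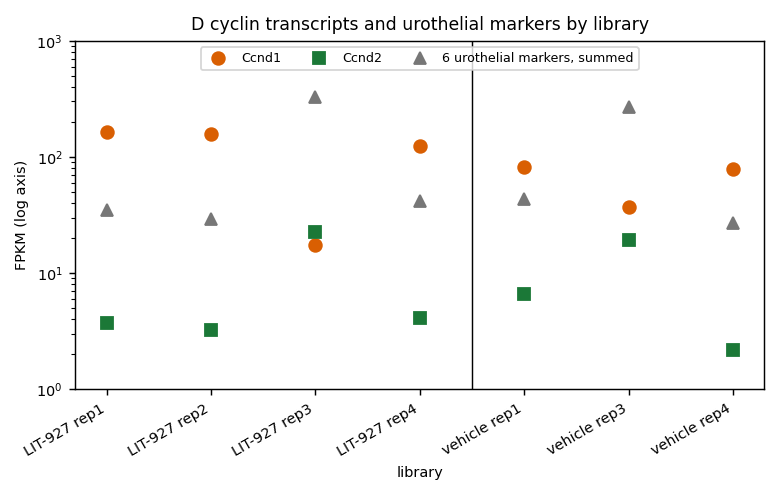
Points give FPKM on a log axis for Ccnd1, Ccnd2 and the sum of 6 urothelial markers in each library, LIT-927 left of the line and vehicle right of it. In both libraries with urothelial sums over 200 FPKM (330.3 and 266.8), Ccnd1 is at its lowest and Ccnd2 at its highest.

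Ccne1, cyclin E1, which with CDK2 starts replication (chromosome 7, 38097984 to 38107534, minus strand), stayed low, at 0.516, 0.595, 0.796 and 0.924 FPKM with LIT-927 against 0.895, 0.393 and 0.435 FPKM with vehicle. Its groups overlapped, with a difference of 0.13 (SE 0.15, 95% interval -0.22 to 0.47; limma adjusted p = 0.998; exact permutation p = 0.40). Of the CDK inhibitors, Cdkn1a, which encodes p21 and is a target of p53 (chromosome 17, 29090976 to 29100727, plus strand), was at 8.76, 5.85, 8.43 and 6.59 FPKM with LIT-927 against 10.3, 9.84 and 3.23 FPKM with vehicle. Vehicle libraries lay on both sides of the LIT-927 range, for a difference of 0.05 (SE 0.38, 95% interval -0.83 to 0.93; limma adjusted p = 0.998; exact permutation p = 0.971). Cdkn1b, which encodes p27 and holds resting cells in G1 (chromosome 6, 134920401 to 134925513, plus strand), was at 34.4, 32.7, 17.7 and 26.8 FPKM with LIT-927 against 28.2, 21.2 and 16.1 FPKM with vehicle. Its difference was 0.33 (SE 0.29, 95% interval -0.34 to 1.01; limma adjusted p = 0.998; exact permutation p = 0.314). Both inhibitors stood above every mitotic member in every library.

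**Figure D5:**
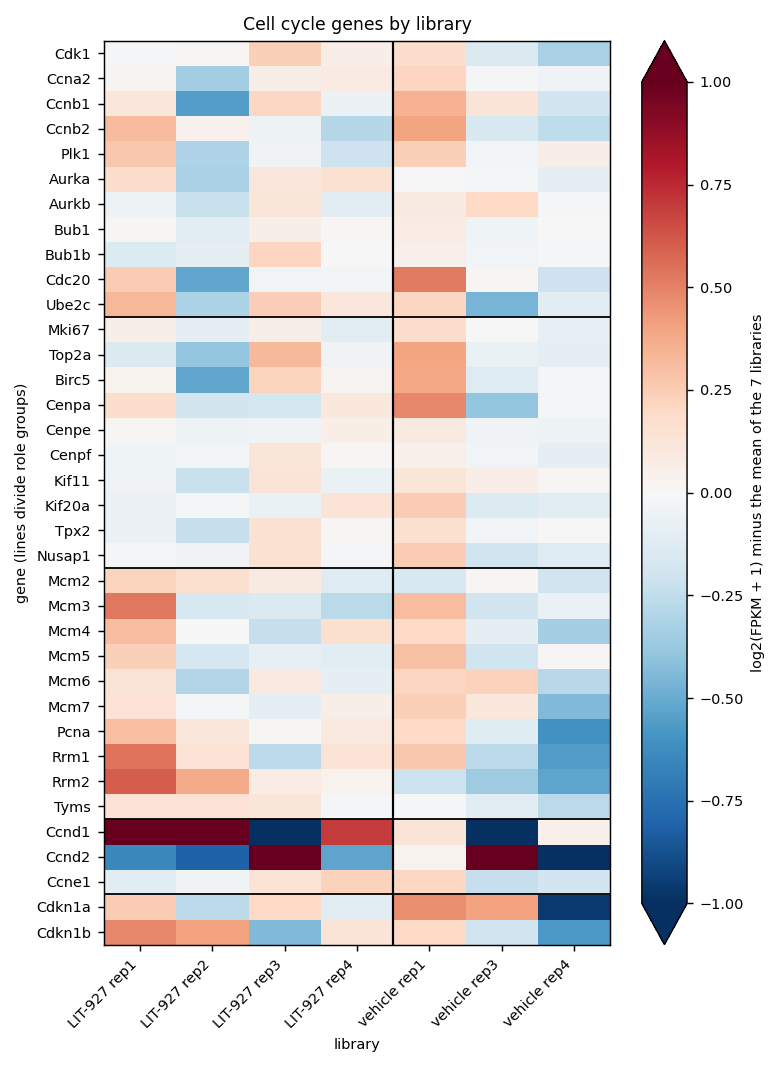
Colours give log2(FPKM + 1) minus the mean of the 7 libraries for each of the 36 members, with LIT-927 libraries left of the vertical line, and horizontal lines divide the role groups. The scale ends at -1 and 1, so the D cyclins exceed it. Ccnd1 and Ccnd2 have opposite colours in replicate 3 of both groups, and LIT-927 replicate 2 is pale or blue for most mitotic genes.

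Among other genes of the pathway, 0 were called as well. Beside the counts of higher means that follow, 55.5% of all genes had a higher mean with LIT-927. Of genes at 1 FPKM or more in 3 libraries, 64.1% did. Of 57 further mitotic genes, 24 had a higher and 33 a lower mean with LIT-927, 0 were called, and the median difference was -0.01. The smallest p belonged to Pbk, a mitotic kinase, at 1.42 ± 0.52 against 0.795 ± 0.346 FPKM, Spc25, a subunit of the kinetochore NDC80 complex, at 3.08 ± 1.53 against 1.54 ± 0.99 FPKM, and Kif23, a motor of cytokinesis, at 0.295 ± 0.045 against 0.455 ± 0.161 FPKM. Of 45 further G1/S and replication genes, 31 had a higher and 14 a lower mean, 0 were called, and the median difference was 0.05. Fen1, the flap endonuclease of lagging-strand synthesis, was at 5.97 to 7.67 FPKM in LIT-927 libraries and 3.22 to 5.58 FPKM in vehicle libraries, with no overlap (difference 0.49, SE 0.24; limma adjusted p = 0.998). Of these 45 genes, 2 had every LIT-927 library above every vehicle library, against 1.08% of all genes, and 2 had every one below, against 2.12%. E2f1, an activating E2F factor, was at 0.431 ± 0.194 against 0.744 ± 0.180 FPKM (difference -0.29, SE 0.13), and E2f7, a repressing one, at 0.0158 ± 0.0095 against 0.0685 ± 0.0247 FPKM.

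Among 13 G1 kinases, pocket proteins and their regulators, 10 had a higher mean with LIT-927 and 0 were called. Cdk6, a partner of D cyclins, was at 1.01 ± 0.26 against 0.616 ± 0.150 FPKM, and Myc at 12.7 ± 1.8 against 10.2 ± 2.3 FPKM. Of 5 other CDK inhibitors, 4 had a higher mean and 0 were called, with Cdkn2c, which encodes p18, at 7.10 ± 2.85 against 4.42 ± 0.88 FPKM. Of 13 other p53 targets, 5 had a higher and 8 a lower mean and 0 were called. Phlda3, a p53-induced repressor of AKT, had the smallest p, at 8.45 ± 2.77 against 16.4 ± 6.6 FPKM (difference -0.86, SE 0.33; limma unadjusted p = 0.0322, adjusted p = 0.998).

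Markers of leukocytes and stroma had lower means with LIT-927. Of 15 leukocyte markers, 14 had a lower mean with LIT-927 and 0 were called, and 8 had an unadjusted limma p under 0.05, against 3.68% of all genes. Their summed level was 5.55 to 19.2 FPKM with LIT-927 and 18.2 to 46.7 FPKM with vehicle, and the pan-leukocyte marker Ptprc was at 0.657, 1.04, 0.456 and 1.11 FPKM in LIT-927 replicates 1 to 4, against 3.23, 1.32 and 2.63 FPKM in vehicle replicates 1, 3 and 4. LIT-927 replicate 3, lowest for Ptprc, was highest of the 7 for Cdk1, Bub1b, Cenpf and Kif11. Vehicle replicate 1, highest for Ptprc, was highest for Mki67, Top2a and 11 other mitotic members in FPKM. After median-of-ratios scaling it was highest for 2 mitotic members and LIT-927 replicate 3 for 14, while the summed leukocyte markers were then highest in vehicle replicate 4 (43.9) and lowest in LIT-927 replicate 3 (6.84). Fibroblast, endothelial and basal epithelial markers had lower means with LIT-927 in 8 of 8, 8 of 8 and 7 of 7 genes, with 0 called. The part of these cells in the levels of the cell cycle genes was not tested.

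Without the high-uroplakin pair and with median-of-ratios scaling, a setting chosen after seeing the data, 5 members had an unadjusted limma p under 0.05, against 9.39% of all genes, and all 5 were mitotic genes with lower means with LIT-927. Top2a had the largest difference, -0.47 (SE 0.12; adjusted p = 0.407), followed by Cenpa (-0.34), Aurkb (-0.25), Kif11 (-0.23) and Nusap1 (-0.15). None was called, with adjusted p from 0.407 to 0.531. Over all 36 members the median difference there was -0.15 and 10 had a higher mean, against a median of -0.004 over all genes. Neither step alone brought any of the 5 under that unadjusted p. Without the pair but unscaled, Ccnd1 was the only member under it, although all 5 had lower means. With median-of-ratios scaling of all libraries, Rrm2 was the only one. The combined setting has fewer libraries in each group. It keeps vehicle replicate 4, the library with the lowest scaling factor, 0.663, which raises its scaled values. That library was also the highest for Svs1, at 25355.5 FPKM.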

How the data were processed

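The authors deposited 1 table per library of FPKM values. Headers name the column expression, so the FPKM unit rests on the values themselves. fastp, HISAT2, HTSeq and build mm10 are named in the submitters' processing notes. Their versions and settings, the annotation and the strand setting were not stated, so reads of overlapping or antisense genes may be shared. Whole fragments were recovered from the FPKM steps within 0.01 fragments for 99.994% of genes. They give depth and an alternative test.

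Log2(FPKM + 1) was tested with limma 3.58.1 in R 4.3.3, with a mean-variance trend, all 7 libraries and no filter or covariate. Exact permutation tests were two-sided over 35 divisions of the libraries. The code was tested on simulated data. Tables and figures were made in Python 3.11.15 with pandas 2.3.3, NumPy 2.4.6, matplotlib 3.10.9 and SciPy 1.17.1. Coordinates are from GENCODE M21 (mm10).

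The members and lists were chosen with earlier results of these data known. Full statistics are given for 15 members chosen by role and any with an unadjusted p under 0.05, and up to 3 genes with the smallest p per other list. Other genes with values were chosen after these were seen. No 2 libraries of a group agreed within sampling noise (chi-square per degree of freedom at least 195). Alternatives were another pseudocount (0.1), voom, a filter (1 FPKM in 3 libraries), scaling by upper quartile or median of ratios, a replicate block, and leaving out libraries.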

Additional observations from a re-analysis of the deposited data

Results flagged for a closer look

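In the LIT-927 group of 4, the gap of 1 library to its nearest neighbour exceeded Dixon's 95% critical value (as a share of the range of log2 values) for 7 of the 36 members. Chance gives about 1 in 20 groups if they are independent, but the members share the same 4 libraries. Genes other than the members were not tested in this way, so the count cannot be called particular to them. LIT-927 replicate 3 was low for Ccnd1 (17.4 FPKM) and high for Ccnd2 (22.8 FPKM) and Nusap1 (0.684 FPKM). LIT-927 replicate 2 was low for Ccna2 (0.580 FPKM) and Aurka (0.381 FPKM). LIT-927 replicate 1 was high for Mcm3 (3.13 FPKM), and LIT-927 replicate 4 was low for Tyms (1.13 FPKM).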

How the results depend on the processing

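In the 15 other settings run, 0 members and 0 of all genes were called, and 15 of 36 members kept the sign of their difference in every setting. The median member difference of -0.006 ran from -0.145 to 0.101. Of the members with full statistics, these turned sign. Without 1 library at a time, the difference ran from -0.106 to 0.024 for Mki67, from -0.267 to 0.020 for Top2a (-0.342 without the high-uroplakin pair), from -0.185 to 0.061 for Mcm5, from -0.820 to 0.513 for Ccnd2 and from -0.412 to 0.297 for Cdkn1a. Ube2c ran from 0.045 to 0.384, but went to -0.007 without that pair and -0.176 with median-of-ratios scaling added, a setting chosen after seeing the data, Ccne1 to -0.056 in that last setting, and Cdkn1a to -0.005 with upper-quartile scaling. Without 1 library at a time, some other members with full statistics kept their sign but moved by over 1.5 times. These were Pcna (0.088 without vehicle replicate 4, 0.492 without vehicle replicate 1), Cdkn1b (0.141, 0.529) and Cdk1 (0.060, 0.309) without the same libraries, Ccnb1 (-0.309 without vehicle replicate 4, -0.006 without LIT-927 replicate 2), Ccne1 (0.044 without vehicle replicate 3, 0.266 without vehicle replicate 1), Aurkb (-0.102 without vehicle replicate 3) and Ccnd1 (0.119 to 1.243). Settings of other kinds moved values too. Mcm2 went from 0.203 to 0.127 with upper-quartile scaling, and to 0.057 without the pair and with median-of-ratios scaling. Cdk1 went to 0.013 in that last setting and to 0.404 with voom. Aurkb and Ccnb1 went to -0.452 and -0.447 with voom. The cause was not tested. The positive values of Mki67, Top2a and Mcm5 came without vehicle replicate 1, where the median of all genes was 0.138. That median was -0.117 without vehicle replicate 4 and 0.118 without the pair. The replicate block over numbers 1, 3 and 4, which drops LIT-927 replicate 2, gave 0 called members. Its differences equal those found on leaving out that library alone, with Ccnd2 turned to 0.077 in both. It is therefore no separate check of the signs. Same-numbered libraries deviated with correlations of 0.575, 0.784 and -0.193, so the numbers were not taken as pairs. Bub1 (4 to 25 fragments per library) and Ccnb1 (19 to 104) rest on few fragments.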
